A study of Mus musculus with 6 samples.

Results

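The accessible regions around Ctgf, Cyr61, Ankrd1 and Amotl2, 4 well-known target genes of the coactivator YAP, were followed through treatment with BRM014. Members were all regions that overlapped 1 of 4 fixed windows of the mouse build mm9: chr10:24210000-24420000 for Ctgf, chr3:145210000-145420000 for Cyr61, chr19:36090000-36300000 for Ankrd1 and chr9:102560000-102690000 for Amotl2. The windows held 28 of 25922 regions after 6 h of BRM014, 40 of 38422 after 30 h, and 37 of 42310 with DMSO. The assay was ATAC-seq, which marks open DNA by the places where a transposase can insert sequencing adapters. All groups were wild-type (WT) NMuMG cells, an established line of mouse mammary epithelium. They were treated with BRM014, which blocks the BRG1 and BRM motors of SWI/SNF remodellers, during 6 h or 30 h, or with the vehicle DMSO, whose time is given only by the name of its list, as 30 h. The cell type was not checked against markers, since the lists name no genes. The labels' extraction protocol also names TGFβ, a treatment that no sample label here carries. The authors deposited 1 peak list for each of the 3 groups, which pools its 2 replicates, so no value below has a replicate error and no test between treatments could be made. Intervals beside shares are 95% Wilson intervals, which cover counting error only and treat neighbouring regions as independent.

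YAP and its paralogue TAZ do not bind DNA themselves. In the nucleus they are brought to DNA by TEAD transcription factors, often at enhancers far from the gene, and the kinases of the Hippo pathway keep them out of the nucleus in dense, quiescent epithelium. SWI/SNF complexes use ATP to move or evict nucleosomes, which keeps many enhancers open to such factors. The 4 genes are among those used most often as readouts of YAP activity. Ctgf and Cyr61 encode secreted matricellular proteins of the CCN family, Ankrd1 an ankyrin repeat protein induced by mechanical stress, and Amotl2 a junction protein of the angiomotin family that binds YAP and restrains it.

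RefSeq promoters (build GRCm38.p6) were matched for 3 of the 4 genes, Cyr61 (RefSeq symbol Ccn1), Ankrd1 and Amotl2. They are shown for the TEAD motif GGAATG, searched on both strands as GGAATG or CATTCC, which is the DNA element that links YAP to its targets. Each of the 3 promoters held it, with 1 match for Cyr61, 2 for Ankrd1 and 1 for Amotl2, against 14.7% of all 32851 promoters of 300 bases in the table. The matches began 103 bases before the gene start in Cyr61, 210 and 123 in Ankrd1, and 65 in Amotl2. The AP-1 motif TGANTCA, found in 7.81% of all promoters, and the CArG box bound by SRF, in 1.63%, had no match in these 3 promoters. A match is a stretch of letters and not a measured binding site. Capitals mark the TEAD motif in the 250 bases before the start of Cyr61 and Ankrd1 and in 30 bases around the match of Amotl2, where another transcript starts further upstream.
Cyr61: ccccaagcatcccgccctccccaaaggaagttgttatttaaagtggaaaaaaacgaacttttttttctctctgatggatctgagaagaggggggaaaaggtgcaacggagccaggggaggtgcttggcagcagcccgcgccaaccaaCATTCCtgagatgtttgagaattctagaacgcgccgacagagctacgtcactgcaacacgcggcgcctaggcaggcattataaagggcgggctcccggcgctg
Ankrd1: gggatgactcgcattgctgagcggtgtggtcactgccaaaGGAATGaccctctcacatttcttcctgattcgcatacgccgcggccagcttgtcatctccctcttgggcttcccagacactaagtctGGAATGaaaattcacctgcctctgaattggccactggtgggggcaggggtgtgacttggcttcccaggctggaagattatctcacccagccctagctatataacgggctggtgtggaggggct
Amotl2: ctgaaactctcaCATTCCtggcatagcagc

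No annotation of mm9 was used, so regions are named by position and none was assigned to a promoter, an enhancer or a gene. The windows can hold sequence of other genes as well. In the GRCm38.p6 gene order the nearest protein-coding neighbours are Moxd1 and Enpp1 for Ctgf, Znhit6 and Ddah1 for Cyr61, Rpp30 and Pcgf5 for Ankrd1, and Anapc13 and Ryk for Amotl2.

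The values used below are the pileup, the number of reads or fragments stacked at a region's highest summit, and the authors' -log10 q of that summit. Relative depth, taken from the lowest background of each list, came to 63.0% at 6 h and 80.7% at 30 h, with the DMSO list as 100%. The expected pileup of a region is its DMSO pileup times this relative depth, and the ratio compares the pileup found with it. Read totals are unknown and this scale rests on the lowest background alone. A scale that sets the median ratio of all kept regions to 1 would divide every ratio by 0.855 at 6 h and by 0.985 at 30 h. A region is called missing when no treated region overlaps it by at least 1 bp, and new when no DMSO region overlaps it. A missing region was not called, which does not mean that it was closed.

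Most DMSO regions of these windows were still called after 30 h of BRM014, and fewer after 6 h. The gap nearly closed in lists of equal length, which leave out the weaker DMSO regions. At 6 h 13 of the 37 DMSO regions were missing, 35.1% (21.8 to 51.2%), against 43.6% of all DMSO regions. At 30 h 3 of 37 were missing, 8.11% (2.80 to 21.3%), against 26.1% of all. With the 25922 strongest regions of every list, 3 of 24 were missing at 6 h, 12.5%, and 2 of 24 at 30 h, 8.33%. This setting counts fewer and stronger DMSO regions by construction and also shortens the 30 h list. The share over all regions is not given at this setting. Whether the smaller gap is particular to the windows was not tested. In the full lists the 3 regions missing at 30 h were those missing at both times, a class that held 23.7% of all DMSO regions. Of these 3, 1 lay in each of the Ctgf, Cyr61 and Amotl2 windows. Missing at 6 h only were 10 of 37, 27.0% (15.4 to 43.0%), against 19.9% of all. No region was missing at 30 h only, 0 of 37 (0 to 9.41%), against 2.33% of all. Called at both times were 24 regions, 64.9% (48.8 to 78.2%), against 54.1% of all.

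At 30 h 10 of the 13 regions missing at 6 h were called, 76.9% (49.7 to 91.8%), against 45.6% of all DMSO regions missing at 6 h. The 6 h list was the shallower, so such a region need not have been regained. The strength of the regions moves with these shares. The members had a median -log10 q of 118 in DMSO, against 91.7 for all DMSO regions, and the shares missing among all regions of their deciles of -log10 q averaged 40.9% for 6 h, 23.4% for 30 h and 21.2% for both. The windows were proposed with results of these data known, and these shares describe the windows without showing that they differ from the rest of the genome.

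**Figure D1:**
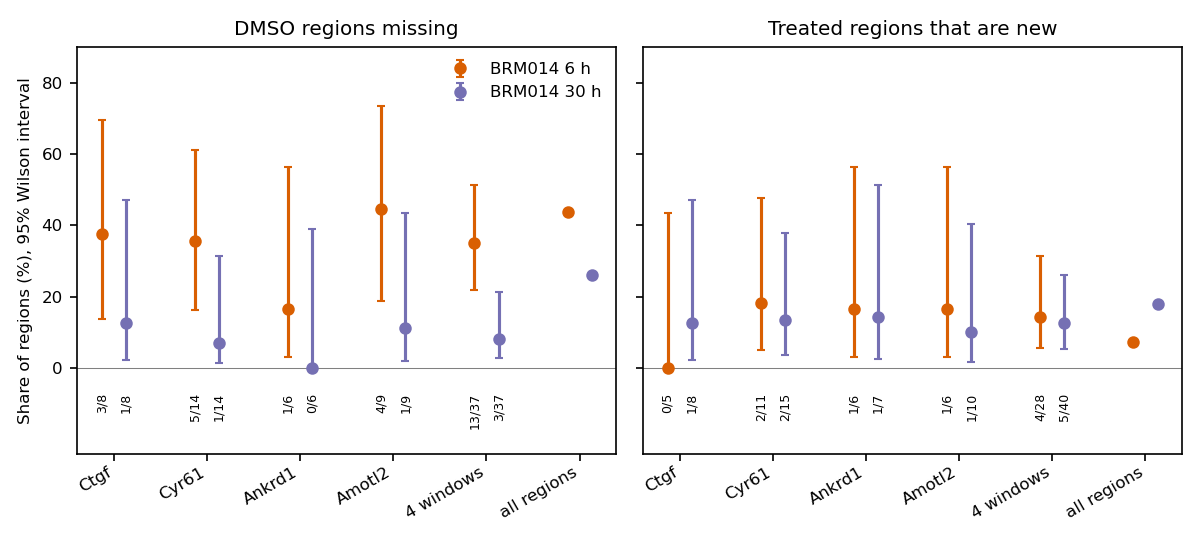
Share of DMSO regions missing (left) and of treated regions that are new (right), in percent with 95% Wilson intervals, for each window, the 4 windows together and all regions, with counts under the points. In every window fewer DMSO regions were missing at 30 h (violet) than at 6 h (orange), with 3 of 37 against 13 of 37 over the 4 windows.

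Among regions still called, the members stood close to the genome. At 6 h 17 of 24 kept regions were below the expected pileup, 70.8% (50.8 to 85.1%), against 64.9% of all kept regions, and the median ratio was 0.816, against 0.855. At 30 h 18 of 34 were below it, 52.9% (36.7 to 68.5%), against 52.1%, and the median ratio was 0.984, against 0.985. Behind these medians the windows differed: at 30 h the median ratio was 0.749 in the Ctgf window, 1.0015 in the Cyr61 window, 1.60 in the Ankrd1 window and 0.869 in the Amotl2 window. At 6 h it was 0.691, 0.689, 0.999 and 0.895 in the same order. Regions of 1 window share their surroundings and are not replicates of a gene.

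**Figure D2:**
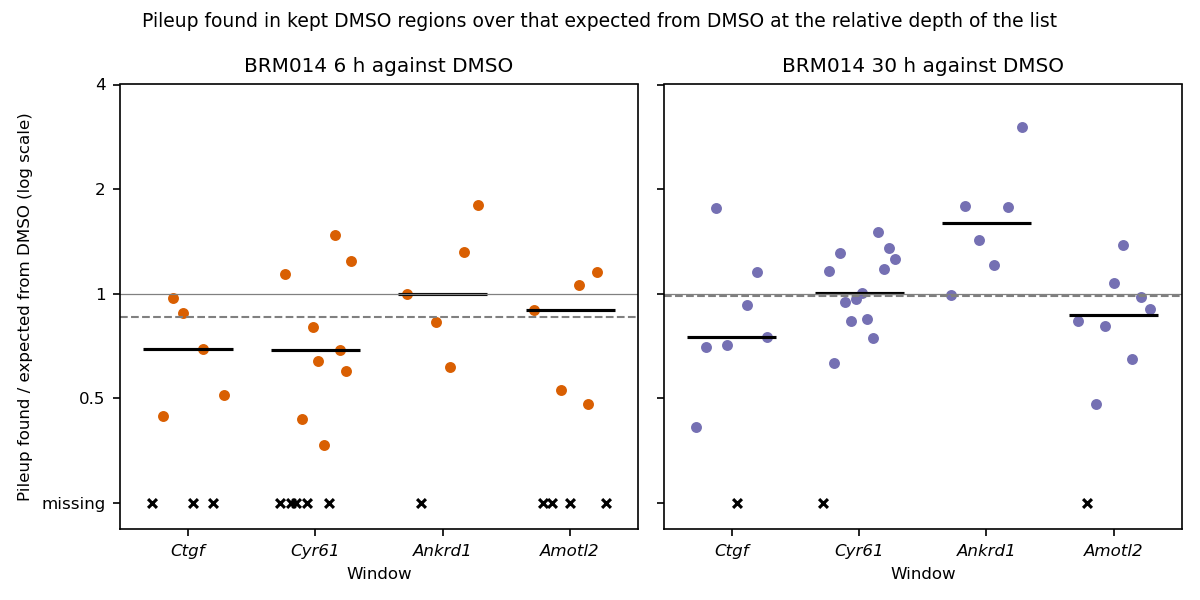
Ratio of the pileup found to that expected from DMSO at the relative depth of the list, on a log scale, for each kept DMSO region at 6 h (left) and 30 h (right), by window. Bars are window medians, the dashed line is the median over all kept DMSO regions, and crosses are missing regions; at 30 h 5 of 6 Ankrd1 regions lie above 1, and 5 of 7 Ctgf and 6 of 8 Amotl2 regions below it.

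Ctgf encodes connective tissue growth factor, a secreted protein that binds matrix and growth factors and is also a classic TGFβ target. Its window held 5 regions at 6 h, 8 at 30 h and 8 in DMSO. At 6 h 3 of the 8 DMSO regions were missing, 37.5% (13.7 to 69.4%), against 43.6% of all. At 30 h 1 was, 12.5% (2.24 to 47.1%), against 26.1% of all. All 5 regions kept at 6 h had less than the expected pileup, against 64.9% of all kept regions. On the scale with a median ratio of 1 over all kept regions, 3 of 5 did, against about 50% of all by construction. At 30 h 5 of 7 were below expectation on both scales, against 52.1% of all kept regions on the first.

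The strongest DMSO region of the window, chr10:24348634-24349589, had a pileup of 114 at 6 h and 214 at 30 h, against 354 in DMSO. The expected pileups were 223 and 286, so the ratios were 0.511 and 0.749. It was also narrower, at 566 bp at 6 h and 682 bp at 30 h, against 956 bp in DMSO. Its minor DMSO summit, with a pileup of 40, was not called at either time. Of all kept regions with a similar expected pileup (within 1 of 4 bins per doubling), 70.1% had a higher ratio at 6 h and 66.6% at 30 h. It lay in the lower part of the range for its strength, not at its end.

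At the centre of the window lay chr10:24315042-24315877, a region with 3 DMSO summits. Its pileup was 135 at 6 h and 232 at 30 h, against 310 in DMSO, with ratios of 0.691 and 0.927. Its width hardly moved, at 801 and 831 bp, against 836 bp in DMSO. Its main summit shifted by 168 bp at 6 h and 5 bp at 30 h relative to DMSO. The highest summits of the region were close in pileup, at 310 and 305 in DMSO and 135 and 129 at 6 h. Beside it chr10:24316102-24316712 was missing at 6 h and had a pileup of 84 at 30 h, against 90 in DMSO. Its expected pileup at 6 h was 56.7, where 58.8% of all DMSO regions were missing. By -log10 q it was in the weakest decile of DMSO, where 89.3% were missing at 6 h. The central region was therefore still called at both times, and its smaller companion at 30 h.

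A pair of regions at the window's edge had the lowest ratios. The region chr10:24211656-24212040 was missing at 6 h and had a pileup of 60 at 30 h, against 180 in DMSO. With an expected pileup of 113 at 6 h it lay where 25.8% of all DMSO regions were missing. Its ratio at 30 h was 0.413, and 92.5% of kept regions of similar expected pileup had a higher one. Its neighbour chr10:24212960-24213577 had 53 at 6 h and 107 at 30 h, against 189 in DMSO, with ratios of 0.445 and 0.701. The new 30 h region of the window, chr10:24213660-24214043, lay 82 bases from this neighbour, had a pileup of 43, and was overlapped at its edge by the 6 h region of that neighbour, with its main summit outside it.

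The region missing at both times in this window, chr10:24309101-24309790, was weak. Its DMSO pileup was 47, and 84.6% of all DMSO regions with its expected pileup were missing at 6 h and 62.8% at 30 h. The region chr10:24273902-24274281, named after its values were seen, had a pileup of 36 at 6 h and 84 at 30 h, against 59 in DMSO. Its ratio at 6 h was 0.969, below the bin median of 1.20, and at 30 h 1.76, above the bin median of 1.22. The Ctgf window thus held regions below and above the expected pileup at 30 h.

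Cyr61 encodes a secreted CCN protein that signals through integrins and is an immediate early gene of serum and mechanical stimulation. Its window was the fullest, with 11 regions at 6 h, 15 at 30 h and 14 in DMSO. At 6 h 5 of 14 DMSO regions were missing, 35.7% (16.3 to 61.2%), against 43.6% of all. At 30 h 1 was, 7.14% (1.27 to 31.5%), against 26.1% of all. At 30 h the kept regions were split about their expected pileup, with 6 of 13 below it, against 52.1% of all kept regions.

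The strongest region, chr3:145312277-145313299, had a pileup of 250 at 6 h and 385 at 30 h, against 494 in DMSO, close to the centre of the window. The ratios were 0.803 and 0.965. It stood in a crowded stretch: the background under its summit was 24.1 at 6 h and 42.6 at 30 h, against 62.4 in DMSO, which kept its DMSO fold enrichment over local background at 7.81. At 30 h its pileup was close to that expected, as for many regions of its strength, whose median ratio was 0.921.

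A different pattern was seen at chr3:145319917-145320589, where 1 of 2 summits was lost. Its pileup was 59 at 6 h and 175 at 30 h, against 256 in DMSO, with ratios of 0.366 and 0.847. At 6 h 87.5% of kept regions of similar expected pileup had a higher ratio. The region shrank to 249 bp at 6 h and 351 bp at 30 h, against 673 bp in DMSO. Its minor DMSO summit, with a pileup of 103, was not called at either time. The main summit was kept in place, with shifts of -14 bp at 6 h and -11 bp at 30 h relative to DMSO.

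Further out, chr3:145347724-145348630 had a pileup above its DMSO value at 30 h but not at 6 h. Its pileup was 164 at 6 h and 214 at 30 h, against 176 in DMSO. The expected values were 111 and 142, which gave ratios of 1.48 and 1.51, and 3.51% of kept regions of similar expected pileup had a higher ratio at 6 h and 5.02% at 30 h. It was above the expected pileup at both times, also on the scale with a median of 1.

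Regions missing at 6 h only were 4 in this window. The strongest, chr3:145303570-145303984, had an expected pileup of 133 at 6 h, where 18.1% of all DMSO regions were missing. Its pileup was 142 at 30 h, against 211 in DMSO, and its width 722 bp, against 415 bp. It was called again at 30 h with a second summit that the DMSO list did not have. For chr3:145329133-145329685 the pileup was 42 at 30 h, against 70 in DMSO, and 70.9% of all DMSO regions with its expected pileup were missing at 6 h. The region missing at both times, chr3:145222618-145223468, had a DMSO pileup of 79, and 65.6% of regions of its expected pileup were missing at 6 h and 42.5% at 30 h.

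Each new region of the Cyr61 window was called at 1 time and not at the other. At 6 h they were chr3:145355911-145356356, with a pileup of 43, and chr3:145377041-145377830, with 29. At 30 h they were chr3:145393092-145393386, with a pileup of 60 at 252 bases from a DMSO region, and chr3:145311104-145311294, with 103 in the crowded centre, where the background was 34.2. Counting regions within 500 bp as shared would make the first of these 30 h regions not new.

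Ankrd1 encodes a cardiac and stress-induced ankyrin repeat protein found in the nucleus and, in muscle, in the sarcomere. The called regions of its window, new ones included, spanned 6557 bp at 6 h and 7820 bp at 30 h, against 5751 bp in DMSO, which is 114% and 136% of DMSO, while over all regions the covered length was 59.1% and 83.1%. The mean width was 1093 bp at 6 h and 1117 bp at 30 h, against 959 bp in DMSO, and over all regions it was 689 bp at 6 h and 653 bp at 30 h, against 714 bp in DMSO. Without its 1 new region per time the window held 5192 bp at 6 h and 6239 bp at 30 h, against 5751 bp in DMSO, so the longer span at 6 h came from the new region. Of the 6 DMSO regions 1 was missing at 6 h, 16.7% (3.01 to 56.4%), against 43.6% of all. At 30 h none was, 0 of 6 (0 to 39.0%), against 26.1% of all.

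At 30 h 1 of the 6 regions was below the expected pileup, against 52.1% of all kept regions, and 0 of 6 were on the scale with a median ratio of 1, where about 50% of all are by construction. The strongest region of the 4 windows, chr19:36193916-36195011, had a pileup of 363 at 6 h and 802 at 30 h, against 696 in DMSO. The expected values were 438 and 562, and the ratios 0.828 and 1.43. At 30 h 0.210% of the 477 kept regions of similar expected pileup, which is 1 region, had a higher ratio. At both times it reached further to one side: its start shifted by -293 bp at 6 h and -286 bp at 30 h relative to DMSO, with an added summit in the new stretch.

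The second strongest, chr19:36203148-36204548, had a pileup of 205 at 6 h and 518 at 30 h, against 531 in DMSO, with ratios of 0.613 and 1.21. Both strong regions were thus below expectation at 6 h and above it at 30 h. At 6 h this was usual for their strength. Of kept regions of similar expected pileup, 55.7% had a higher ratio than the strongest and 64.2% than the second. At 30 h 6.44% had a higher ratio than the second. The third, chr19:36157433-36158752, kept its 5 summits at both times and had 175 at 6 h and 222 at 30 h, against 278 in DMSO, with ratios of 0.999 and 0.989. At 6 h the median ratio of kept regions of its expected pileup was 0.768, and 27.6% of them had a higher ratio.

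The weaker regions of the window had ratios above 1 at 30 h. The region chr19:36165285-36165619 was missing at 6 h and had a pileup of 75 at 30 h, against 52 in DMSO, a ratio of 1.79, over 684 bp, against 335 bp. Among kept regions of its expected pileup the median ratio at 30 h was 1.29, and 15.5% had a higher one. The other 2, named after their values were seen, lay further out. At chr19:36257625-36258057 the pileup was 118 at 6 h and 203 at 30 h, against 142 in DMSO, with ratios of 1.32 and 1.77, where the medians of its bin were 0.833 and 0.931. At the outermost, chr19:36281711-36282876, it was 50 at 6 h and 107 at 30 h, against 44 in DMSO, with ratios of 1.80 and 3.01. This region was in the weakest decile of DMSO by -log10 q. Weak regions are kept when they are high enough to be called, and among all kept regions of its expected pileup the median ratio was 1.33 at 6 h and 1.38 at 30 h. At 30 h 0.979% of these regions had a higher ratio.

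A wide new region was called in this window at both times. It spanned chr19:36184497-36185861 at 6 h, 1365 bp with 5 summits, and chr19:36184462-36186042 at 30 h, 1581 bp with 6 summits. Its pileup was 78 at 6 h and 152 at 30 h, and the nearest DMSO region lay 8054 bases away at 6 h and 7873 at 30 h. Of the 1923 new regions at 6 h, 4 were at least as wide, itself included, and 4 had as many summits. Of the 6894 new regions at 30 h, 4 were at least as wide and 3 had as many summits. By -log10 q it was less extreme, with 414 new regions above it at 6 h and 255 at 30 h. It was unusual for its breadth and number of summits more than for its strength.

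**Figure D3:**
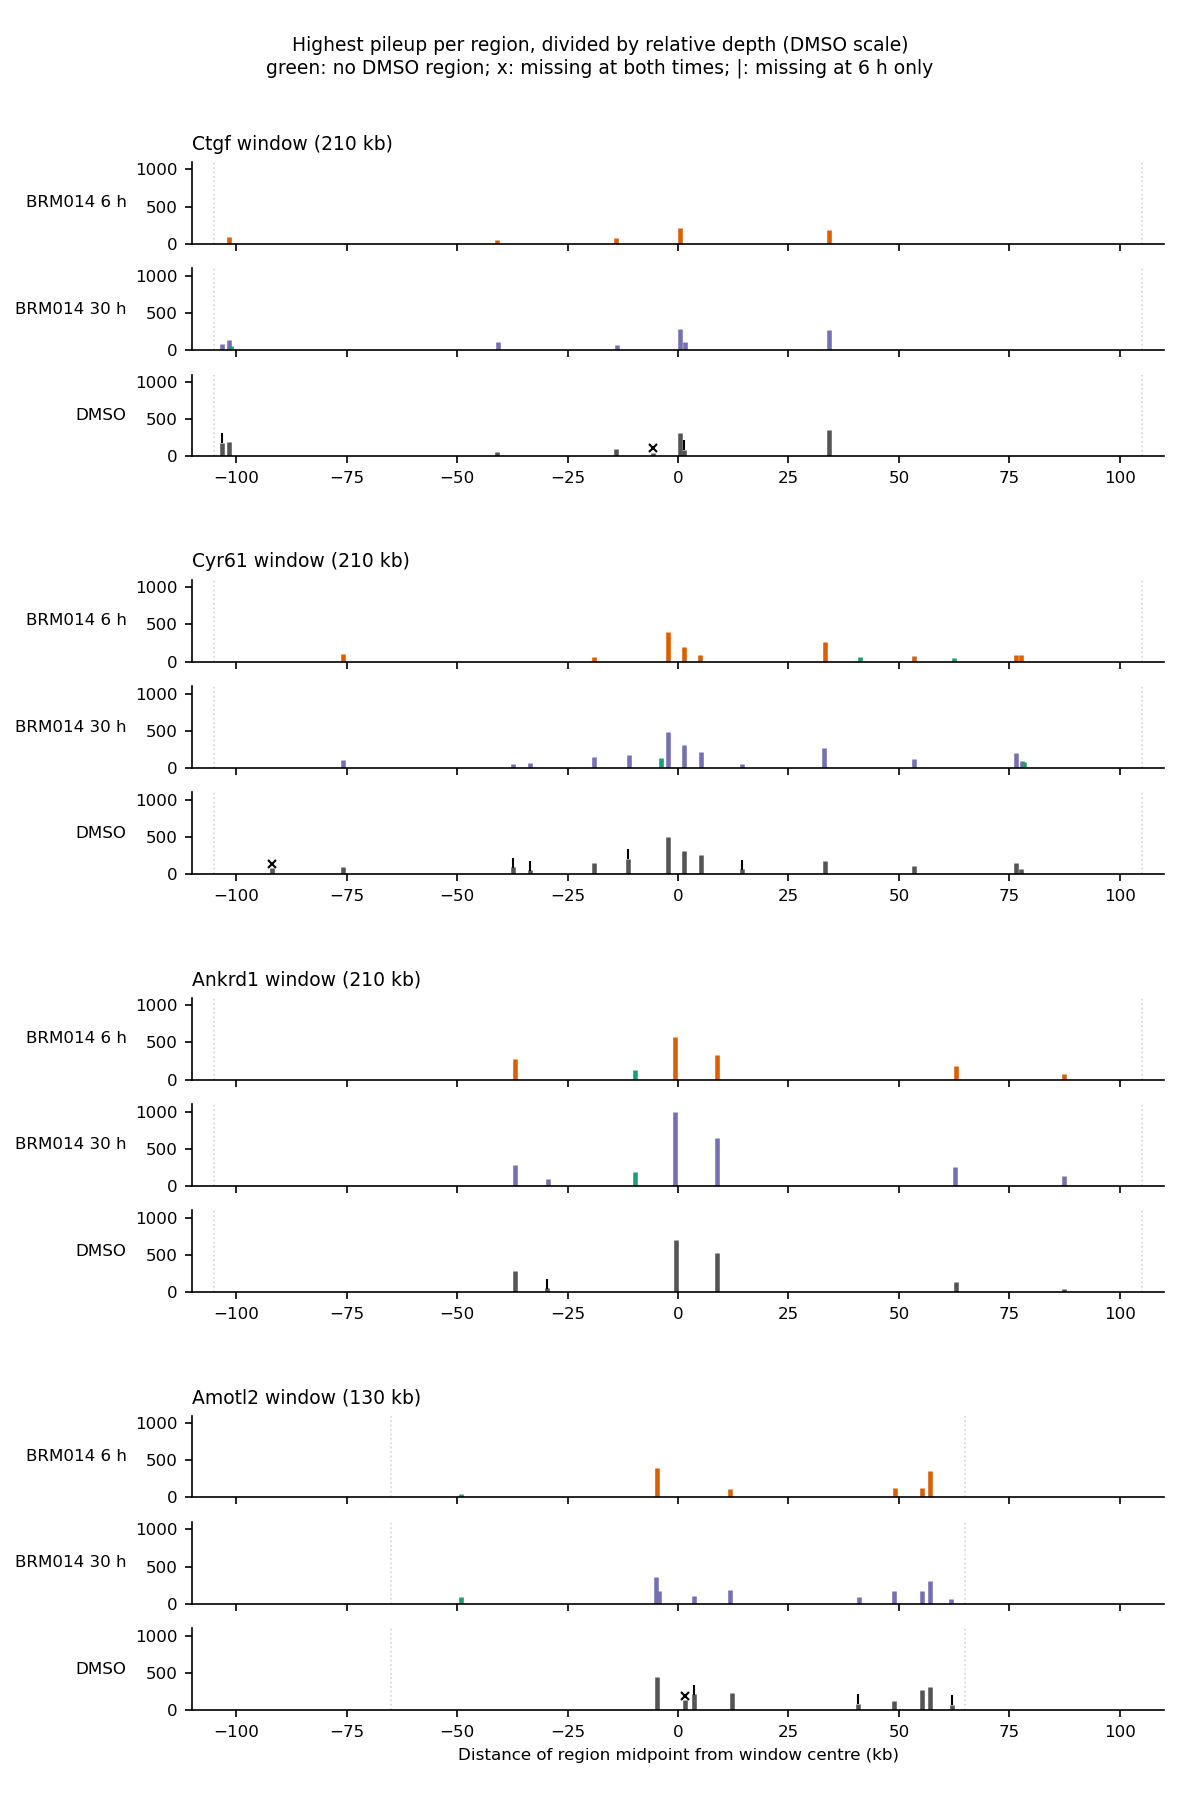
Highest pileup of each region divided by the relative depth of its list, against the distance of the region's midpoint from the window centre in kb, for the 6 h, 30 h and DMSO lists of each window. Dotted lines are window limits, green bars are new regions, crosses mark DMSO regions missing at both times and ticks those missing at 6 h only; the tallest bars belong to the centre of the Ankrd1 window, highest at 30 h.

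Amotl2 encodes angiomotin-like 2, which binds YAP at cell junctions, so that its induction by YAP closes a negative feedback loop. Its window held 6 regions at 6 h, 10 at 30 h and 9 in DMSO. At 6 h 4 of 9 DMSO regions were missing, 44.4% (18.9 to 73.3%), against 43.6% of all. At 30 h 1 was, 11.1% (1.99 to 43.5%), against 26.1% of all. At 30 h 6 of 8 kept regions were below the expected pileup.

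The strongest region, chr9:102619429-102620964, had 4 summits in every list. Its pileup was 247 at 6 h and 295 at 30 h, against 438 in DMSO, with ratios of 0.895 and 0.834. At 30 h it was called as 2 regions, chr9:102619443-102620516 and chr9:102620623-102620914, with the 4 summits still called. It was the 1 kept region of the 34 in the 4 windows that was overlapped by more than 1 region at 30 h, 2.94% (0.521 to 14.9%), against 1.41% of all kept regions. At 6 h none of 24 was, 0 of 24 (0 to 13.8%), against 1.24%. The second strongest region, chr9:102681817-102682266, had a pileup of 226 at 6 h and 245 at 30 h, against 310 in DMSO, with ratios of 1.16 and 0.979. Both lay between 0.834 and 1.16 of the expected pileup.

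A widening like that in the Ankrd1 window was seen at chr9:102636862-102637748. The region measured 1616 bp at 6 h and 1767 bp at 30 h, against 887 bp in DMSO, and had 4 summits at 6 h and 3 at 30 h, against 1 in DMSO. Its start shifted by -871 bp at 6 h and -894 bp at 30 h relative to DMSO. Its highest pileup was lower, at 75 at 6 h and 147 at 30 h, against 226 in DMSO, with ratios of 0.527 and 0.806. It grew in extent while its main summit, within 25 bp of the DMSO summit at both times, carried less signal.

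Between these lay a pair of regions with losses. The region chr9:102626358-102626870 was missing at both times, with a DMSO pileup of 133. At its expected pileup 44.0% of all DMSO regions were missing at 6 h and 24.4% at 30 h. In its decile of -log10 q the shares were higher, at 60.9% and 34.6%. It was the strongest by pileup of the 3 members missing at both times. By -log10 q, at 54.3, it stood below the one of the Cyr61 window, at 64.9. Next to it chr9:102628333-102629001 was missing at 6 h, at an expected pileup of 133, where 18.1% of all were missing. In its decile of -log10 q 38.6% were. At 30 h its pileup was 82, against 211 in DMSO, a ratio of 0.481, and 86.4% of kept regions of similar expected pileup had a higher one. That ratio was the lowest at 30 h among the 8 kept regions of the Amotl2 window.

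Further out, chr9:102665185-102666286 was missing at 6 h and had a pileup of 71 at 30 h, against 82 in DMSO, over 594 bp, against 1102 bp. A new region was called at both times, chr9:102575613-102576110 at 6 h and chr9:102575713-102576282 at 30 h. Its pileup was 28 at 6 h and 75 at 30 h, and its -log10 q 19.8 and 66.9, and 331 of the 6894 new 30 h regions had a higher -log10 q. No DMSO region lay within 22963 bases of it at 6 h or within 23063 at 30 h.

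**Figure D4:**
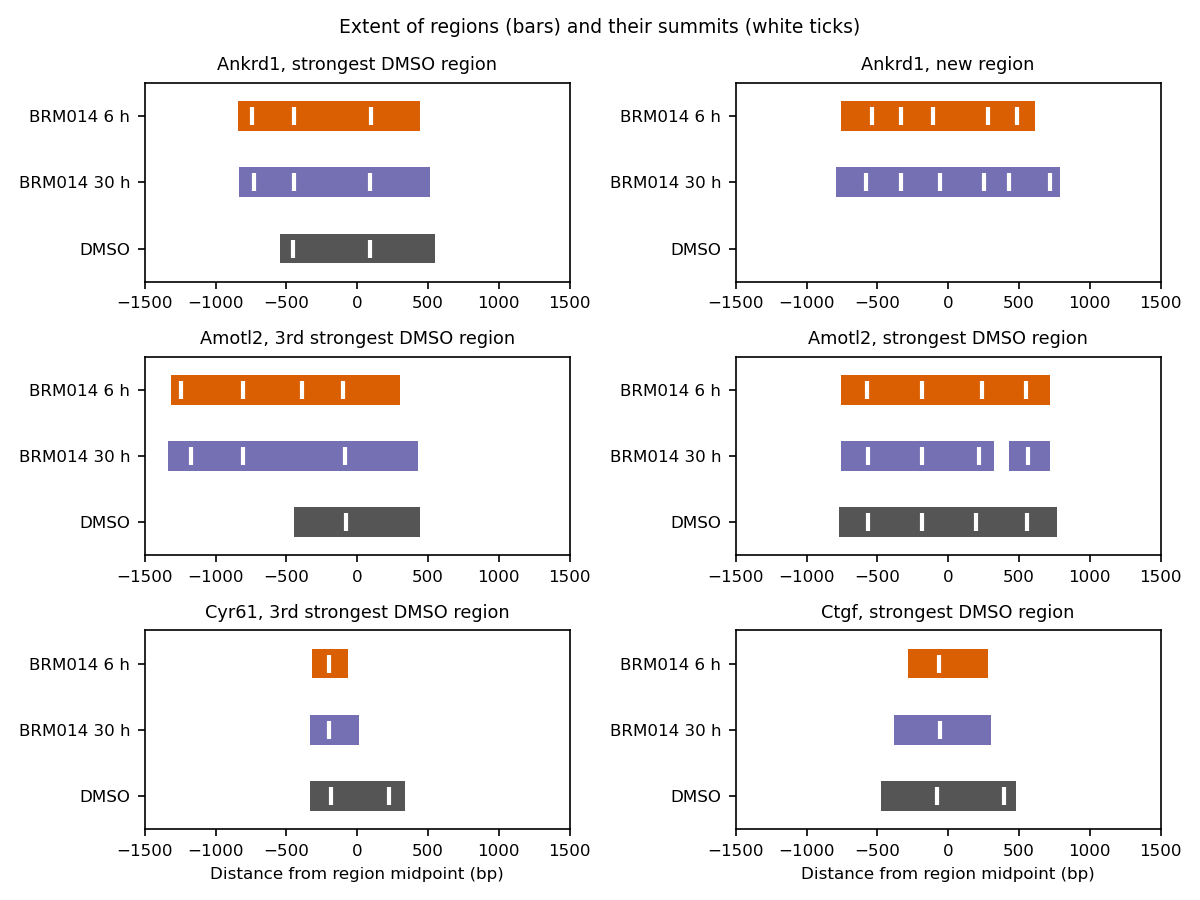
Extent of 6 regions in the 6 h, 30 h and DMSO lists, in bp from the midpoint of the DMSO region (of the 30 h region for the new one), with summits as white ticks. The Ankrd1 region and the 3rd strongest Amotl2 region reach further left after treatment, the strongest Amotl2 region is called as 2 at 30 h, and the Cyr61 and Ctgf regions lose their minor summit.

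Taking all members, new regions were few and widths went both ways. At 6 h 4 of 28 regions were new, 14.3% (5.70 to 31.5%), against 7.42% of all, and at 30 h 5 of 40, 12.5% (5.46 to 26.1%), against 17.9%. Kept regions narrower than 90% of their DMSO width were 13 of 24 at 6 h, 54.2% (35.1 to 72.1%), against 46.9% of all, and 12 of 34 at 30 h, 35.3% (21.5 to 52.1%), against 37.0%. Those wider by the same factor were 5 of 24 at 6 h, 20.8% (9.24 to 40.5%), against 10.4% of all, and 11 of 34 at 30 h, 32.4% (19.1 to 49.2%), against 13.5%. For wider regions at 30 h the share of all thus lay below the members' interval, which covers counting error only. By window they were 1 of 7 for Ctgf, 6 of 13 for Cyr61, 3 of 6 for Ankrd1 and 1 of 8 for Amotl2. The Ctgf and Amotl2 shares, 14.3% and 12.5%, were thus near that of all. The wider share was not checked at other settings. The main summit lay within 50 bp of its DMSO place in 21 of 24 kept regions at 6 h, 87.5%, against 88.7% of all, and in 33 of 34 at 30 h, 97.1%, against 91.3%. Both summit shares lay near those of all kept regions.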

How the data were processed

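Per the submitters' processing notes, the authors called peaks with MACS2 2.1.2 on the build mm9, and per the labels a group's 2 replicates went into 1 list. The aligner, read filters and any shift of reads for the transposase are not given in the sources used here. The lists deposited by the authors give, per entry, a score (540 to 1000), the ratio of the summit over local background (fold enrichment), and -log10 p and -log10 q, which were taken as their own and used within a list. Entries that overlap were merged. The pileup is a whole number solved from the authors' fold enrichment with -log10 p, assuming MACS2 defaults, and matched within 0.001 for 100% of entries. Read totals are unknown, and relative depth was taken from the lowest background (2.12 at 6 h, 2.72 at 30 h, 3.37 in DMSO). Named regions are, per window, the 3 strongest DMSO regions by -log10 q, up to 2 missing at 6 h only and at both times, all missing at 30 h only, and up to 2 new per time, unless said otherwise. Windows and lists were chosen with earlier results of these data known. The steps were run in Python 3.11.15 with scipy 1.17.1 and tested on simulated data. Since there was 1 list per group, no test was made.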

Additional observations from a re-analysis of the deposited data

How the results depend on the processing

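Of 91 alternative values over 9 shares, 86 stayed within the main Wilson interval, which is wide at these counts. With the 25922 strongest regions by -log10 q in every list, 12.5% of member DMSO regions were missing at 6 h, in place of 35.1%. At 30 h 8.33% were, in place of 8.11%, so the gap between the times nearly closed. Fewer and stronger DMSO regions are counted by construction, and the share over all regions is not given at this setting. Among 6 h regions with a score of 1000, 0 of 13 were new. Taking only the middle of the windows, at 50% of their length, 13 of 14 kept regions were below the expected pileup at 6 h. That is 92.9% (68.5 to 98.7%), in place of 70.8%, against 64.9% of all kept regions, which are of all strengths. The central share was not set beside regions of like strength, and is not given on the scale with a median ratio of 1. On that scale the share over the full windows at 6 h was 54.2%, against about 50% of all by construction. The cause was not tested. With the width limit at 75%, which is stricter by construction, 29.2% of kept regions were narrower at 6 h and 20.6% at 30 h. Leaving out any 1 window moved no share beyond its interval. No paired analysis was possible because the 2 replicates of a group share 1 list, which also leaves no replicate to leave out.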
